A study of Homo sapiens with 12 samples.

Results

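HCT116 cells that overexpress the standard isoform of CD44 (CD44s-OE) were compared with parental HCT116 cells in 4 of the 12 RNA-seq libraries of the series, 2 libraries per group, chosen by the cell line and treatment in their labels. HCT116 is an established human colon cancer line. The study transfected HCT116 and a further colon cancer line, SW480, with plasmids for CD44s or for the variant CD44v6, selected the transfected cells with Geneticin, and sequenced polyA RNA from these and from parental cells to ask which genes follow each isoform. In HCT116, the CD44s-OE group therefore differs from the parental group by a stably held pcDNA-CD44s plasmid and by drug selection. The parental group carries neither, and no library of cells with an empty plasmid was analysed here. The column names of the counts call the CD44s-OE libraries pools without saying what was pooled. No source used here says whether the 2 libraries of a group came from separate cultures, so the p-values measure a spread between replicate libraries that may be technical. That spread was pooled over the parental, CD44s-OE and CD44v6-OE libraries of HCT116, of which the CD44v6-OE pair lay closest together. It is therefore not the spread of the 4 compared libraries alone.

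CD44 is a membrane glycoprotein that binds hyaluronan, a sugar polymer of the extracellular matrix, and couples it to the cytoskeleton and to growth factor receptors. Its standard isoform skips all variable exons, and epithelial cells tend to switch toward it when they lose the splicing regulator ESRP1 during epithelial-mesenchymal transition (EMT), in which junction proteins such as E-cadherin give way to vimentin and matrix proteins under factors such as ZEB1. The interferon system is a separate program: sensors of viral nucleic acid switch on interferon genes, and the secreted interferons switch on a large set of antiviral genes through STAT and IRF factors.

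The CD44s-OE libraries held 51563991 and 51075563 counts and the parental libraries 52811889 and 52644253. Levels are given below as CPM, which are counts scaled to library size after TMM normalization, and comparisons as log2 fold changes from edgeR with their standard errors (SE). In bulk RNA, fewer cells of a type and less RNA per cell cannot be told apart. The labelled cell type was checked against markers: keratins KRT8, KRT18 and KRT19 were abundant in all 4 libraries, while the colon epithelial markers CDH17 and CEACAM5 had 0 counts in all 4. The 15 leukocyte markers summed to between 2.29 and 3.12 CPM per library, with PTPRC at 0 counts in all 4. The 12 fibroblast markers summed to 19.3 and 13.4 CPM in the parental libraries and to 32.3 and 58.3 CPM in CD44s-OE, with LUM and FAP at 0 counts in all 4.

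The targeted gene itself did not separate the groups. CD44 (hg19, chr11:35160429-35253949, plus strand) stood at 540.1 and 540.9 CPM in the parental libraries and at 572.4 and 518.4 CPM in CD44s-OE, which overlap. Its log2 fold change was 0.01 (SE 0.12, edgeR adjusted p = 0.959). The gene count adds up reads of all CD44 exons and cannot separate the plasmid's isoform from the endogenous ones, so it checks total CD44 RNA only.

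Across the 17335 genes tested, far more passed the thresholds upward than downward. Calls required an adjusted p (Benjamini-Hochberg) below 0.1 together with a log2 fold change over 1.5 in either direction, the thresholds of the study's methods. By this rule 469 genes were higher in CD44s-OE (2.71% of those tested) and 67 were lower (0.387%). A fit of the 4 compared libraries alone, without CD44v6-OE in the estimate of spread, called 311 higher and 44 lower of 16683 tested. Without the fold minimum, 1465 genes were higher (8.45%) and 990 lower (5.71%), and the median over all of them was a log2 fold change of 0.04. Most of the genes called higher were weakly expressed before: 342 of the 469 (72.9%) averaged under 1 CPM in parental cells, and their median parental level was 0.326 CPM against 1.42 CPM for the genes called lower. Of the genes called higher, 352 were protein coding and 83 were lncRNAs. The number of calls depended on single libraries: leaving out parental 2 gave 112 higher and 24 lower, and leaving out CD44s-OE 1 gave 649 and 154.

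**Figure D1:**
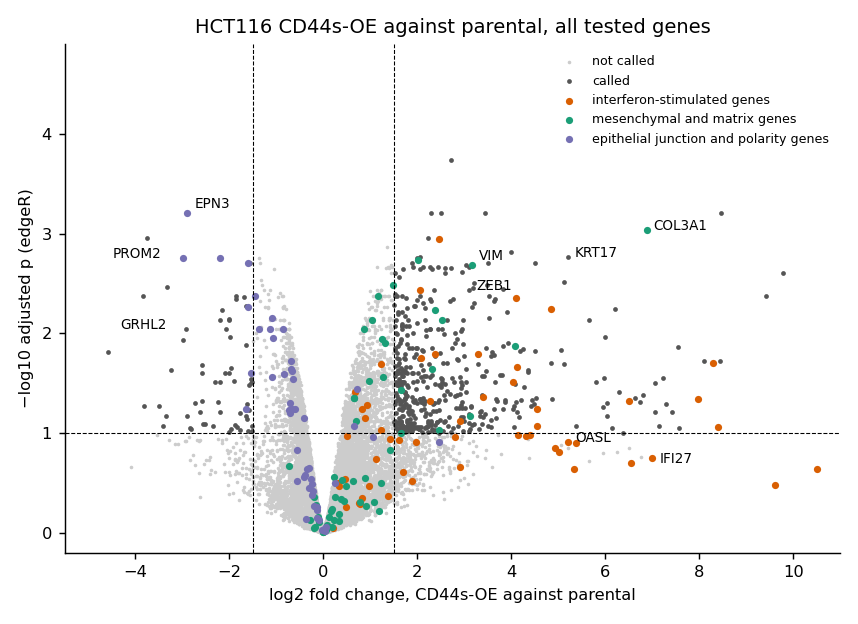
Each point is 1 of the 17335 tested genes, with the log2 fold change of CD44s-OE against parental on the x axis and −log10 of the edgeR adjusted p on the y axis. Dashed lines mark the fold and adjusted p thresholds. Interferon-stimulated genes (orange) fill the right side on both sides of the p threshold, mesenchymal genes (green) lie to the right and epithelial junction genes (purple) mostly to the left.

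Interferon-stimulated genes had the highest median fold change of the gene lists. The list had 55 tested members, of which 18 were called higher and 0 lower, against 2.71% and 0.387% of all tested genes. All 55 log2 fold changes were positive, with a median of 2.47. DESeq2, run on the same counts, called 33 of them higher (2.75% of all genes it tested) and 0 lower (0.384%). In 41 of the 55 both CD44s-OE libraries lay above both parental libraries, which held for 27.5% of all tested genes. The 24 antiviral effectors among them had a median of 3.67 with 7 called, and the 6 genes of the ISG15 ubiquitin-like modifier system a median of 2.14 with 2 called.

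The members called with the largest folds had been close to silent in parental cells. IFI44, an interferon-induced antiviral gene, stood at 0.038 and 0.156 CPM in parental cells and at 15.2 and 2.78 CPM in CD44s-OE (log2 fold change 6.51, SE 1.23, adjusted p = 0.0474). With only 10 parental counts, the ratio of the groups was 92.7, with an exact 95% interval of counting error from 39.4 to 287. APOL1, a lipoprotein-associated gene that interferon induces, stood at 0.038 and 0.156 CPM in parental cells and at 4.29 and 1.41 CPM in CD44s-OE (log2 fold change 4.85, SE 0.69, adjusted p = 0.00572), and its 10 parental counts gave a ratio of 29.5 (exact 95% interval of counting error 12.4 to 92.5). Both genes showed the same order, with CD44s-OE 1 highest, CD44s-OE 2 next and no overlap with parental cells.

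IFIT2 and IFIT3, which encode proteins that bind viral RNA, followed the same order from a higher base. IFIT2 stood at 0.836 and 2.54 CPM in parental cells and at 60.6 and 18 CPM in CD44s-OE (log2 fold change 4.54, SE 0.87, adjusted p = 0.0569). IFIT3 stood at 1.75 and 2.66 CPM and at 58.2 and 18.2 CPM (log2 fold change 4.12, SE 0.61, adjusted p = 0.0219). The groups did not overlap for either gene. XAF1, GBP4 and IFI44L had 0 counts in both parental libraries and were carried mainly by CD44s-OE 1. XAF1 had 75 and 6 counts in the CD44s-OE libraries, GBP4 63 and 12, and IFI44L 54 and 6, so that XAF1 and IFI44L in CD44s-OE 2 lay at the limit of 6 counts, or 3 read pairs, that a count of 0 allows. With the CD44s-OE libraries pooled and set against 3 read pairs over the parental group, XAF1 was at least 13.9-fold higher, GBP4 at least 12.8-fold higher and IFI44L at least 10.3-fold higher in CD44s-OE. With the counting error of both groups included, the exact 95% lower limits of these ratios were 10.9, 10.1 and 7.85. Several of these calls rested on the estimate of spread. IFI44 and IFIT2 missed the adjusted p threshold when any one of the parental or CD44v6-OE libraries was left out of the fit (0.141 to 0.253 and 0.126 to 0.19), as did XAF1 (0.211 to 0.302) and IFI44L (0.116 to 0.221). IFIT3 missed it without parental 1 (0.11) or parental 2 (0.173) and GBP4 without parental 2 (0.152), whereas APOL1 remained called in each of these fits.

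The sequence around the start of these genes was read from RefSeq promoter windows (GRCh38.p14, 250 bases before to 50 bases after the annotated start) to show what the list shares beyond its RNA levels. The motif searched on either strand was the core of the interferon-stimulated response element that STAT and IRF factors bind, 2 copies of GAAA separated by any 2 bases, or on the reverse strand 2 copies of TTTC. They occurred in 29 of the 41 interferon-stimulated genes with a window (70.7%), in 2.8% of the windows of tested genes, in 3.65% of all 27305 windows and in 8.83% of those of genes called higher. The windows of XAF1, OAS1 and CMPK2 held no match. A match describes the letters only. The lines below show 30 bases around 1 match in called genes (IFI44, IFIT3, GBP4) and in genes on which the CD44s-OE libraries disagreed (IFI27, IFITM1, BST2), 5′ to 3′ on the gene's strand, with the match in capitals.
IFI44, chr1:78649761-78649790, plus strand: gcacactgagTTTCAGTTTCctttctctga
IFIT3, chr10:89327831-89327860, plus strand: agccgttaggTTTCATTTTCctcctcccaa
GBP4, chr1:89198927-89198956, minus strand: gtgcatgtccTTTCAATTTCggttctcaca
IFI27, chr14:94110618-94110647, plus strand: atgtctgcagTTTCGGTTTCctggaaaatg
IFITM1, chr11:313990-314019, plus strand: caaacagcagGAAATAGAAActtaagagaa
BST2, chr19:17405741-17405770, minus strand: tcctttctggGAAACTGAAActgaaaacct

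The gap between the CD44s-OE libraries was also widest in this list. Relative to the parental mean, the median interferon-stimulated gene was 2.92 higher in CD44s-OE 1 and 0.92 higher in CD44s-OE 2 on the log2 CPM scale. CD44s-OE 1 was above CD44s-OE 2 in 55 of 55 members, and over 2-fold above it in 42. IFI27, widely used as a marker of interferon exposure, stood at 0.513 and 0.684 CPM in parental cells, at 150 CPM in CD44s-OE 1 and at 4.02 CPM in CD44s-OE 2. IFITM1, which blocks virus entry at the membrane, stood at 1.07 and 1.33 CPM in parental cells and at 93.4 and 2.51 CPM in CD44s-OE. OAS1, which makes the messenger that activates RNase L, stood at 0.19 and 0.801 CPM in parental cells and at 90.2 and 2.44 CPM in CD44s-OE. Each of the 3 genes was above parental cells in both CD44s-OE libraries, and none was called by edgeR (adjusted p = 0.177, 0.227 and 0.201).

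Further members split the libraries in the same direction. IFI6, an antiapoptotic interferon-induced gene, stood at 8.02 and 9.99 CPM in parental cells and at 539 and 42.0 CPM in CD44s-OE (log2 fold change 5.01, SE 1.48, adjusted p = 0.155). BST2, the tetherin that holds virus particles on the cell surface, stood at 0.741 and 0.821 CPM in parental cells and at 59.8 and 5.51 CPM in CD44s-OE (log2 fold change 5.38, SE 1.45, adjusted p = 0.125). CMPK2, a nucleotide kinase induced with the antiviral genes, stood at 0.665 and 0.977 CPM in parental cells and at 11.4 and 0.952 CPM in CD44s-OE, so that CD44s-OE 2 fell within the parental range. How many list members were called therefore turned on which library was kept: 43 without CD44s-OE 2 and 23 without CD44s-OE 1, against 9 without parental 1, 4 without parental 2 and 11 without either CD44v6-OE library. In the first of these fits 3.7% of all tested genes were called higher, and in the second 3.54%.

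**Figure D2:**
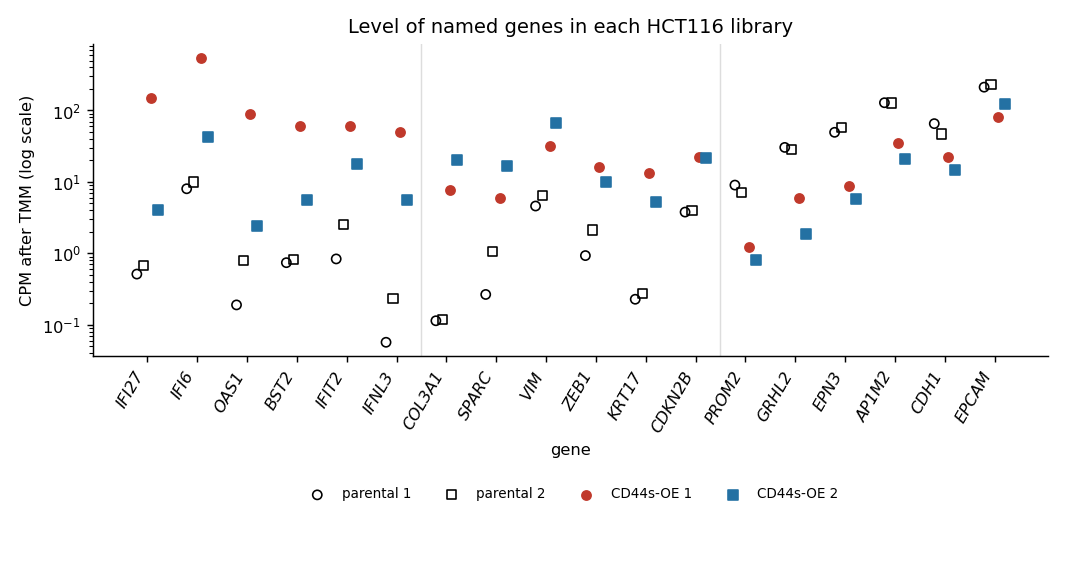
CPM on a log axis of 18 named genes in the 4 libraries, parental as open symbols and CD44s-OE as filled symbols, with no bars because every library is drawn. The first 6 genes belong to the interferon system and place CD44s-OE 1 above CD44s-OE 2, the middle 6 rise in both CD44s-OE libraries with COL3A1, SPARC and VIM higher in CD44s-OE 2, and the last 6 are epithelial genes lower in both.

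Genes upstream of this response moved less uniformly. Of 33 tested genes for interferon sensing and signaling, 4 were called higher and 0 lower, against 2.71% and 0.387% of all tested genes, with a median log2 fold change of 0.82, and DESeq2 called 9 higher. The list had 14 calls without CD44s-OE 2 and 0 without parental 2. Among the ligands, IFNB1 (interferon beta) had 0 counts in both parental libraries and 1.41 and 0.267 CPM in CD44s-OE, at least 14.4-fold higher with the libraries pooled (exact 95% lower limit 11.2), and its call ended without parental 2 (adjusted p = 0.149). IFNL3, an interferon lambda, stood at 0.057 and 0.235 CPM in parental cells and at 50.3 and 5.64 CPM in CD44s-OE (log2 fold change 7.57, SE 1.67, adjusted p = 0.0882). The adjusted p of IFNL3 was 0.243 to 0.318 without any one of the parental or CD44v6-OE libraries. Its paralogs IFNL1, at 60.1 and 5.07 CPM in CD44s-OE, and IFNL2, at 32.3 and 2.93 CPM, were not called. Since IFNL2 and IFNL3 are nearly identical in sequence, the split of reads between them is uncertain. IFNE, an epithelial interferon, went the other way between the libraries, with 0.563 CPM in CD44s-OE 1 and 1.24 CPM in CD44s-OE 2 against 0.19 and 0.156 CPM in parental cells. Its call (log2 fold change 2.36, SE 0.63, adjusted p = 0.0503) ended without CD44s-OE 2 (0.184), parental 1 (0.159) or parental 2 (0.275).

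Among the sensors, DDX58, which encodes the RNA sensor RIG-I, was the clearest. It stood at 5.86 and 7.00 CPM in parental cells and at 64.3 and 25.7 CPM in CD44s-OE, without overlap (log2 fold change 2.81, SE 0.39, adjusted p = 0.0099, and 0.119 without parental 2). DHX58, the related sensor LGP2, stood at 1.39 and 0.977 CPM in parental cells and at 42.8 and 5.41 CPM in CD44s-OE and was not called (adjusted p = 0.115). The 15 kinases, transcription factors and inhibitors of the pathway had 0 calls. At an adjusted p under 0.1 at any fold, 4 were higher and 0 lower, against 8.45% and 5.71% of all tested genes. Their median member stood 0.93 above the parental mean in CD44s-OE 1 and 0.02 above it in CD44s-OE 2 on the log2 CPM scale. IRF1, named after its values were seen, stood above the parental range in CD44s-OE 1 only, at 87.5 CPM against 21.9 CPM in CD44s-OE 2.

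Antigen presentation followed the interferon genes on a smaller scale. Of 28 tested genes, 6 were called higher and 0 lower, against 2.71% and 0.387% of all tested genes, the median log2 fold change was 0.88, and CD44s-OE 1 was above CD44s-OE 2 in 28 of 28. The median member stood 1.48 above the parental mean in CD44s-OE 1 and 0.25 above it in CD44s-OE 2 on the log2 CPM scale. ERAP2, which trims peptides for MHC class I, differed least between the libraries, with 0.285 and 0.469 CPM in parental cells and 1.79 and 1.52 CPM in CD44s-OE (log2 fold change 2.13, SE 0.39, adjusted p = 0.0149). TAPBPL, a peptide editor for class I, had 6 parental counts, and its ratio of 12.8 had an exact 95% interval of counting error from 4.13 to 65.9 (adjusted p = 0.0165, and 0.116 without parental 2). PSMB9, an immunoproteasome subunit, stood at 3.16 and 2.5 CPM in parental cells and at 25.6 and 5.41 CPM in CD44s-OE (log2 fold change 2.45, SE 0.70, adjusted p = 0.0993).

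The calls of PSMB9 and of the class II gene HLA-DPA1 depended on CD44s-OE 1. HLA-DPA1 stood at 0.798 and 0.547 CPM in parental cells and at 4.02 and 1.01 CPM in CD44s-OE (log2 fold change 1.90, SE 0.59, adjusted p = 0.0833). Without CD44s-OE 1, PSMB9 had a log2 fold change of 0.93 and HLA-DPA1 one of 0.58, both under the fold minimum, and both also lost the call without any one of the parental or CD44v6-OE libraries. B2M, the light chain of class I, named after its values were seen, changed by less. It stood at 146 and 148 CPM in parental cells and at 478 and 220 CPM in CD44s-OE (log2 fold change 1.25, adjusted p = 0.0501). HLA genes resemble each other, so reads may be split among them. The list had 2 calls without CD44s-OE 1, 14 without CD44s-OE 2, 2 without parental 1 and 1 without parental 2.

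Of the genes called in the list of the NFκB pathway and cytokines, most encoded cytokines and chemokines. Of 44 tested genes, 11 were called higher and 0 lower, against 2.71% and 0.387% of all tested genes, with a median log2 fold change of 0.71. The calls took in 7 of 20 cytokines and chemokines and 3 of 14 subunits and inhibitors. At an adjusted p under 0.1 at any fold, 18 members were higher, of which 9 were cytokines and chemokines. CCL5, a chemokine that attracts T cells, stood at 0 and 0.86 CPM in parental cells and at 99.3 and 21.5 CPM in CD44s-OE (log2 fold change 7.14, SE 1.53, adjusted p = 0.0852). Its adjusted p was 0.136 to 0.282 without any one of the parental or CD44v6-OE libraries. CXCL1, a neutrophil attractant, stood at 0.304 and 0.782 CPM in parental cells and at 11.5 and 2.59 CPM in CD44s-OE (log2 fold change 3.69, SE 0.80, adjusted p = 0.0475, and 0.125 to 0.202 without any of those 4 libraries). The interferon-induced chemokines CXCL10 and CXCL11 each had 2 parental counts, with ratios of 37.5 (6.41 to 1540) and 20.5 (3.29 to 852) and exact 95% intervals of counting error in brackets. The call of CXCL10 ended without parental 2 (adjusted p = 0.147) and that of CXCL11 without parental 1 (0.184) or parental 2 (0.172).

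IL32 and CSF2, cytokines that the study also examines, gave no call. IL32 stood at 4.54 and 6.31 CPM in parental cells and at 3.84 and 5.22 CPM in CD44s-OE (log2 fold change −0.26, SE 0.25, adjusted p = 0.553), with overlap. CSF2 had 6 counts over the parental libraries and 7 over CD44s-OE (ratio 1.2, exact 95% interval 0.232 to 9.35), too few to show a difference. The number of NFκB and cytokine calls was 16 without CD44s-OE 2, 7 without CD44s-OE 1, 4 without parental 1 and 2 without parental 2.

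Mesenchymal and matrix genes had medians above parental cells in both libraries. Of 55 tested genes, 10 were called higher and 0 lower, against 2.71% and 0.387% of all tested genes, with a median log2 fold change of 0.66. The median member stood 0.74 above the parental mean in CD44s-OE 1 and 0.55 above it in CD44s-OE 2 on the log2 CPM scale. Both CD44s-OE libraries lay above both parental libraries in 29 of the 55, against 27.5% of all tested genes, and the CD44s-OE libraries were over 2-fold apart in 13, with CD44s-OE 1 higher in 8 and CD44s-OE 2 in 5. Leaving out any 1 of the 6 libraries left 7 to 11 calls. COL3A1, a fibrillar collagen (hg19, chr2:189839099-189877472, plus strand), stood at 0.114 and 0.117 CPM in parental cells and at 7.67 and 20.1 CPM in CD44s-OE (log2 fold change 6.88, SE 0.56, adjusted p = 0.000912). With 12 parental counts, its ratio was 123, with an exact 95% interval of counting error from 56.1 to 336. SPARC, a collagen-binding matricellular protein, stood at 0.266 and 1.08 CPM in parental cells and at 5.90 and 16.7 CPM in CD44s-OE (log2 fold change 4.08, SE 0.66, adjusted p = 0.0134). VIM, the intermediate filament vimentin (chr10:17270240-17279592, plus strand), stood at 4.60 and 6.39 CPM in parental cells and at 32.1 and 66.0 CPM in CD44s-OE (log2 fold change 3.16, SE 0.33, adjusted p = 0.00209). All 3 kept the call with each library left out, and in all 3 CD44s-OE 2 was the highest library.

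Among the 14 tested collagens 3 were called higher, against 2.71% of all tested genes, and CD44s-OE 2 was above CD44s-OE 1 in 10. The other 2 called collagens, named after their values were seen, were COL13A1, at 4.37 and 7.86 CPM in parental cells and 23.3 and 46.5 CPM in CD44s-OE, and COL7A1, at 2.87 and 2.21 CPM and at 8.37 and 17.9 CPM. Fibroblast markers moved with this group as a sum, through COL1A1 and COL3A1, while DCN, LUM, FAP and COL1A2 had at most 6 counts in each of the 4 libraries. PDGFRB, the fibroblast and pericyte receptor, was called lower instead (0.741 and 0.293 CPM in parental cells, 0.141 and 0.114 CPM in CD44s-OE, log2 fold change −2, adjusted p = 0.0982), a call that ended without any one of the parental or CD44v6-OE libraries (0.165 to 0.43) or without CD44s-OE 2 (0.148). MMP1, an interstitial collagenase, had 9 parental counts, all in parental 1, and was called (log2 fold change 3.13, SE 0.91, adjusted p = 0.0672, ratio 9.02 with an exact 95% interval of counting error from 3.24 to 26.7), but not without parental 2 (0.236) or either CD44v6-OE library (0.12 and 0.122). S100A4, a calcium-binding protein of motile cells, separated the libraries and was not called. It stood at 142 and 148 CPM in parental cells, at 141 CPM in CD44s-OE 1 and at 398 CPM in CD44s-OE 2 (adjusted p = 0.282).

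Of the 8 tested EMT transcription factors 2 were called higher and 0 lower, against 2.71% and 0.387% of all tested genes, and the log2 fold changes of the list were positive in 4 and negative in 4. ZEB1, a repressor of epithelial genes (hg19, chr10:31607424-31818742, plus strand), stood at 0.932 and 2.13 CPM in parental cells and at 16.3 and 10.1 CPM in CD44s-OE, without overlap (log2 fold change 3.11, SE 0.39, adjusted p = 0.00368). SNAI2, the repressor Slug, stood at 0.228 and 0.586 CPM in parental cells and at 1.83 and 1.41 CPM in CD44s-OE (log2 fold change 1.99, SE 0.44, adjusted p = 0.0297, and 1.46 with 0.123 without parental 1). ZEB1 stayed called with every library left out. Other tested members gave no call, among them SNAI1, named after its values were seen, at 30.5 and 30.1 CPM in parental cells and at 34.4 and 20 CPM in CD44s-OE.

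Epithelial junction and polarity genes moved the other way. Of 52 tested genes 7 were called lower (0.387% of all tested genes were) and 0 higher, 25 had an adjusted p under 0.1 downward at any fold against 2 upward, and 44 log2 fold changes were negative with a median of −0.49. The calls lay among adherens junction and EPCAM family genes (3 of 10) and polarity, sorting and membrane proteins (4 of 17), with 0 of 17 tight junction and 0 of 8 desmosome genes. At an adjusted p under 0.1 at any fold, 6, 11, 4 and 4 members were lower in that order. Over all tested genes 5.71% were. The 2 members upward were both tight junction genes. EPN3, an endocytic adaptor of epithelia (hg19, chr17:48610043-48621111, plus strand), stood at 49.4 and 57.6 CPM in parental cells and at 8.73 and 5.68 CPM in CD44s-OE (log2 fold change −2.89, SE 0.22, adjusted p = 0.000623). PROM2, a prominin of membrane protrusions, stood at 9.03 and 7.15 CPM and at 1.25 and 0.80 CPM (log2 fold change −2.98, SE 0.29, adjusted p = 0.00177). AP1M2, the epithelial subunit of a basolateral sorting adaptor, stood at 128 and 127 CPM and at 34.5 and 20.9 CPM (log2 fold change −2.21, SE 0.21, adjusted p = 0.00177). None of the 3 overlapped between groups, and all 3 remained called with every library left out.

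The adhesion molecules fell by less. CDH1, E-cadherin (hg19, chr16:68771195-68869444, plus strand), stood at 65.4 and 46.8 CPM in parental cells and at 22.2 and 14.7 CPM in CD44s-OE (log2 fold change −1.60, SE 0.23, adjusted p = 0.00541), and its fold dropped under the minimum without CD44s-OE 2 (−1.35) or parental 1 (−1.35). MAL2, a transcytosis protein, stood at 98.9 and 91.0 CPM and at 35.8 and 27.1 CPM (log2 fold change −1.60, SE 0.16, adjusted p = 0.002), and −1.42 without CD44s-OE 2. NECTIN4, an adhesion receptor, was called at −1.64 (adjusted p = 0.0578) and lost the call without any one of the other libraries except CD44s-OE 1. EPCAM, the surface marker by which the study sorts cell states, stood at 212 and 233 CPM in parental cells and at 80.3 and 121 CPM in CD44s-OE, without overlap (log2 fold change −1.14, SE 0.18, adjusted p = 0.00908), under the fold minimum.

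CD44s-OE 2 lay further down than CD44s-OE 1 in this list. CD44s-OE 1 was above CD44s-OE 2 in 39 of 52 members, and the median member stood −0.38 and −0.55 from the parental mean on the log2 CPM scale. The number of members called lower was 9 without CD44s-OE 1 (0.841% of all genes tested in that fit were), 3 without CD44s-OE 2 (0.725%) and 5 or 6 without any of the other libraries. Over all 67 genes called lower, CD44s-OE 2 was further from parental cells in 44 and CD44s-OE 1 in 23.

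The letters CACCTG (reverse complement CAGGTG), the E-box to which ZEB and SNAI repressors bind, were searched in the same RefSeq windows. They were present in 20 of the 36 genes called lower that have a window (55.6%), in 12 of 29 epithelial junction genes (41.4%), in 4 of 41 mesenchymal genes (9.76%), in 21.9% of genes called higher, in 19.4% of tested genes and in 20.6% of all windows. The window of PROM2 held no match, and EPN3, CDH1 and EPCAM had no entry. Shown are 30 bases around a match in the 2 called junction genes that have one (GRCh38.p14, 5′ to 3′ on the gene's strand, match in capitals). The match starts 57 bases before the annotated start in AP1M2 and 38 bases before it in NECTIN4.
AP1M2, chr19:10587352-10587381, minus strand: gacagcgctgctCACCTGgccgcctcccct
NECTIN4, chr1:161089579-161089608, minus strand: cccccagagacgCACCTGttctgacctgct

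Regulators of epithelial identity gave 1 call among 24 tested genes, downward, against 0.387% of all tested genes called lower. GRHL2, a transcription factor that maintains epithelial junctions (hg19, chr8:102504667-102681954, plus strand), stood at 30.4 and 28.6 CPM in parental cells and at 5.88 and 1.89 CPM in CD44s-OE (log2 fold change −2.93, SE 0.43, adjusted p = 0.00911). ESRP1, the splicing regulator whose loss favours CD44s, stood at 122 and 106 CPM in parental cells and at 47.5 and 41.7 CPM in CD44s-OE (log2 fold change −1.36, SE 0.14, adjusted p = 0.00198), without overlap and under the fold minimum. Of the 13 tested splicing regulators 4 had an adjusted p under 0.1 downward and 0 upward, against 5.71% and 8.45% of all tested genes. ESRP2 and OVOL1, named after their values were seen, had log2 fold changes of −0.54 (adjusted p = 0.0326) and −1.41 (adjusted p = 0.044).

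**Figure D3:**
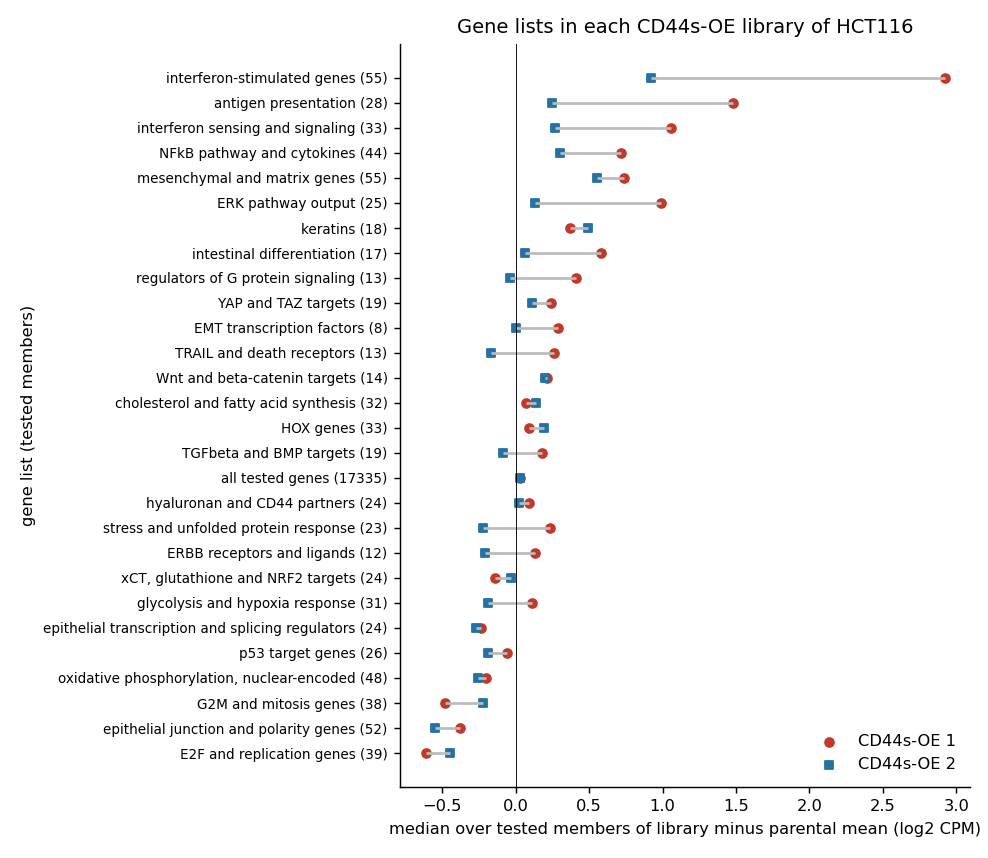
Median over the tested members of each gene list of the library minus the parental mean, in log2 CPM, for CD44s-OE 1 (circles) and CD44s-OE 2 (squares), with lists ordered by their median log2 fold change and the number of tested members in brackets. The gap between the libraries is widest for the interferon-stimulated genes (2.92 against 0.92), while the mesenchymal and epithelial junction lists lie on the same side of 0 in both libraries.

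Keratins went both ways, with 2 of 18 called higher and 1 lower, against 2.71% and 0.387% of all tested genes. KRT17, a stress keratin of basal cells, stood at 0.228 and 0.274 CPM in parental cells and at 13.5 and 5.16 CPM in CD44s-OE (log2 fold change 5.20, SE 0.49, adjusted p = 0.0017). KRT13, of stratified epithelia, stood at 3.99 and 1.70 CPM and at 6.64 and 17 CPM (log2 fold change 2.05, SE 0.50, adjusted p = 0.0458), a call that ended without CD44s-OE 2 (1.21) and without either CD44v6-OE library (adjusted p = 0.11 and 0.116) or parental 2 (0.242). KRT7, of simple epithelia, stood at 26.1 and 47.2 CPM in parental cells and at 6.22 and 11.2 CPM in CD44s-OE (log2 fold change −2.08, SE 0.33, adjusted p = 0.00908). The abundant KRT8, KRT18 and KRT19 gave no call. In none of the 3 called keratins did the groups overlap.

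The largest single increases also took in PLAAT4, DPEP1 and CFB. PLAAT4, a phospholipase that retinoids and interferons induce, had 1 parental count and stood at 5.23 and 3.22 CPM in CD44s-OE (adjusted p = 0.000623), a ratio of 441 with an exact 95% interval of counting error from 39.2 to 8770. DPEP1, a membrane dipeptidase raised in colorectal tumors, stood at 1.20 and 2.81 CPM in parental cells and at 67.3 and 24.2 CPM in CD44s-OE (log2 fold change 4.51, SE 0.62, adjusted p = 0.0151). CFB, complement factor B, had 1 parental count, was called (adjusted p = 0.0304), and had a ratio of 68.8 (exact 95% interval of counting error 5.86 to 1420). Its call ended without parental 1 (0.16) or parental 2 (0.209).

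Among the largest decreases outside the epithelial lists, LINC01405, a long noncoding RNA, stood at 4.51 and 5.24 CPM in parental cells and at 0.342 and 0.381 CPM in CD44s-OE, without overlap (log2 fold change −3.74, SE 0.32, adjusted p = 0.0011). C1orf210, MEIOSIN, CRYBG1, GALNT3, CYSRT1 and OR51B5 had log2 fold changes between −2.20 and −1.85 with adjusted p between 0.00425 and 0.011. GALNT3 encodes an enzyme that starts mucin-type glycosylation. Of these 6, GALNT3 lost the call without parental 2 (adjusted p = 0.117).

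The signaling lists held few calls each, to be read against the 2.71% of all tested genes called higher and the 0.387% called lower. RGS4 and RGS5, which shut off G protein signals, rose with little spread, RGS4 from 0.266 and 0.274 CPM to 3.76 and 4.93 CPM (log2 fold change 4.00, SE 0.37, adjusted p = 0.00152) and RGS5 from 1.5 and 1.64 CPM to 13.5 and 20.7 CPM (3.44, SE 0.27, adjusted p = 0.000623). RGS16 of the same family went down, from 5.57 and 7.37 CPM to 2.54 and 1.62 CPM (−1.64, SE 0.29, adjusted p = 0.013), and lost the call without CD44s-OE 2 (−1.37) or parental 2 (adjusted p = 0.138). These were 3 of 13 tested regulators of G protein signaling.

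Among 19 TGFβ and BMP targets 3 were called higher. CDKN2B, the cell cycle inhibitor p15, stood at 3.78 and 4.03 CPM in parental cells and at 22.7 and 21.9 CPM in CD44s-OE (log2 fold change 2.51, SE 0.19, adjusted p = 0.000623), with the libraries of each group close together. BMP2 (10 parental counts, ratio 7.29, exact 95% interval 2.89 to 24.2) lost its call without CD44s-OE 1 (adjusted p = 0.117) or either parental library (0.134 and 0.256). ATOH8 stood at 1.98 and 1.52 CPM and at 5.21 and 4.89 CPM (log2 fold change 1.53, SE 0.28, adjusted p = 0.0147, and 1.48 without CD44s-OE 1, 1.35 without parental 2).

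Of 19 YAP and TAZ targets 2 were called higher, against 2.71% of all tested genes. There was 1 call without CD44s-OE 2, without parental 1 or without either CD44v6-OE library, and there were 3 without parental 2. NT5E, the ecto-nucleotidase CD73, stood at 20.5 and 42.2 CPM in parental cells and at 191 and 187 CPM in CD44s-OE (log2 fold change 2.59, SE 0.28, adjusted p = 0.00248). ANKRD1, a muscle and stretch-induced repeat protein, stood at 0.114 and 0.274 CPM and at 0.463 and 1.28 CPM (adjusted p = 0.0887) and lost the call without any one of the other libraries except CD44s-OE 1 (0.15 to 0.376).

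Wnt and β-catenin targets gave 2 calls among 14. DKK4, a secreted Wnt inhibitor, had 0 counts in both parental libraries and 0.966 and 2.32 CPM in CD44s-OE, at least 29.1-fold higher (exact 95% lower limit 23.2, adjusted p = 0.00425). TNFRSF19, a TNF receptor family member, stood at 0.684 and 1.17 CPM and at 3.72 and 5.22 CPM (log2 fold change 2.27, SE 0.36, adjusted p = 0.00911). The widely used target AXIN2, named after its values were seen, stood at 17.4 and 19.4 CPM in parental cells and at 18.4 and 19.0 CPM in CD44s-OE (log2 fold change 0.03, SE 0.16), an overlap.

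The ERK pathway output list had 1 call of 25 (2.71% of all tested genes were called higher), with 4 without CD44s-OE 2 and 3 without parental 2. The call was ETV1, a transcription factor downstream of ERK, at 14.9 and 15.1 CPM in parental cells and at 45.4 and 65.1 CPM in CD44s-OE (log2 fold change 1.88, SE 0.19, adjusted p = 0.00198). The list's median member stood 0.99 above the parental mean in CD44s-OE 1 and 0.13 above it in CD44s-OE 2. Immediate-early genes were among those that differed. Named after their values were seen, EGR1 stood at 95.6 and 108 CPM in parental cells, 414 CPM in CD44s-OE 1 and 95.3 CPM in CD44s-OE 2, and JUNB at 178 and 173, 374 and 115 CPM. For both, CD44s-OE 2 lay at or below the parental libraries. By contrast DUSP6, an ERK phosphatase also named after its values were seen, was above parental cells in both, at 250 and 313 CPM against 103 and 150 CPM (log2 fold change 1.15, adjusted p = 0.00917).

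ERBB ligands gave 1 call in each direction among 12 genes. BTC, betacellulin, stood at 1.03 and 1.58 CPM in parental cells and at 3.94 and 3.79 CPM in CD44s-OE (log2 fold change 1.57, SE 0.30, adjusted p = 0.0175, and 1.28 without parental 1). NRG1, neuregulin 1, stood at 1.05 and 0.86 CPM and at 0.262 and 0.343 CPM (log2 fold change −1.65, SE 0.46, adjusted p = 0.0593), a call that ended without any of the libraries except CD44s-OE 2. TNFSF10, the death ligand TRAIL, was the 1 called gene of 13 in its list, with 2 parental counts and a ratio of 10.3 (exact 95% interval 1.46 to 446), and its call ended without any library except CD44s-OE 2. The hyaluronan and CD44 partner list, with 24 tested genes, had 0 calls by edgeR, with 3 adjusted p under 0.1 upward and 1 downward at any fold. DESeq2 called 1 of its members lower and 0 higher, and 3 passed an unadjusted edgeR p of 0.05 in each direction, against 14.6% of all tested genes upward and 10.6% downward.

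Many replication and mitosis genes were lower by small amounts. Of 39 tested E2F and replication genes 0 were called, but 24 had an adjusted p under 0.1 downward against 5.71% of all tested genes, 0 upward, and the median log2 fold change was −0.50. Of 38 G2M and mitosis genes 0 were called and 15 passed that p threshold downward, with a median of −0.33. DESeq2 called 0 in both lists. At an unadjusted edgeR p under 0.05 there were 31 and 17 members downward and 0 upward, against 10.6% and 14.6% of all tested genes. Named after their values were seen, MCM4, a subunit of the replicative helicase, stood at 355 and 418 CPM in parental cells and at 187 and 223 CPM in CD44s-OE (log2 fold change −0.91, SE 0.14, adjusted p = 0.00734), and PLK1, a mitotic kinase, at 415 and 424 and at 229 and 243 CPM (−0.83, SE 0.12, adjusted p = 0.00532). Neither gene's groups overlapped, and both stayed well under the fold minimum. Nuclear-encoded oxidative phosphorylation genes had 0 of 48 called, 6 downward at the adjusted p threshold, 13 downward at an unadjusted p under 0.05, 0 calls by DESeq2 and a median of −0.21.

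Outside the lists, the disagreement between the CD44s-OE libraries can be set against that of the other groups. Among 11044 genes with an average log2 CPM of at least 2, CD44s-OE 1 and 2 were over 2-fold apart for 291 (2.63%), the parental libraries for 73 (0.661%) and the CD44v6-OE libraries of HCT116 for 0. The SD over genes of the log2 difference between replicates was 0.46, 0.29 and 0.152 in that order. CD44s-OE 1 was the higher library for 232 of the 291 (2.1% of the 11044) and CD44s-OE 2 for 59 (0.534%), whereas over all 17335 tested genes the split was 1003 against 781. Of those 232, 40 belonged to the interferon-stimulated or the interferon sensing and signaling list. Of the 291, 44 were called between groups in either direction, against 2.71% of all tested genes called higher and 0.387% called lower. Of 25 such well-expressed genes whose log2 fold change exceeded 1.5 without a call, CD44s-OE 1 was over 2-fold above CD44s-OE 2 in 24.

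Among the genes on which CD44s-OE 2 was the higher library, the 10 with the largest difference were SPARC, S100A4, SEPTIN1, GRIN2B, COL3A1, ARPC4, KRT13, LINC01963, CCDC18 and ANKRD26, with CD44s-OE 1 minus CD44s-OE 2 between −1.5 and −1.25 in log2 CPM. ARPC4, a subunit of the actin-nucleating Arp2/3 complex, stood at 60.4 and 76.4 CPM in parental cells, 46.8 CPM in CD44s-OE 1 and 120 CPM in CD44s-OE 2, on either side of the parental range. GRIN2B, a glutamate receptor subunit, stood at 12.1 and 15.6 CPM, 4.02 CPM and 10.9 CPM in the same order, with both CD44s-OE libraries below. These differences were chosen for their size between the CD44s-OE libraries and are given without a test.

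**Figure D4:**
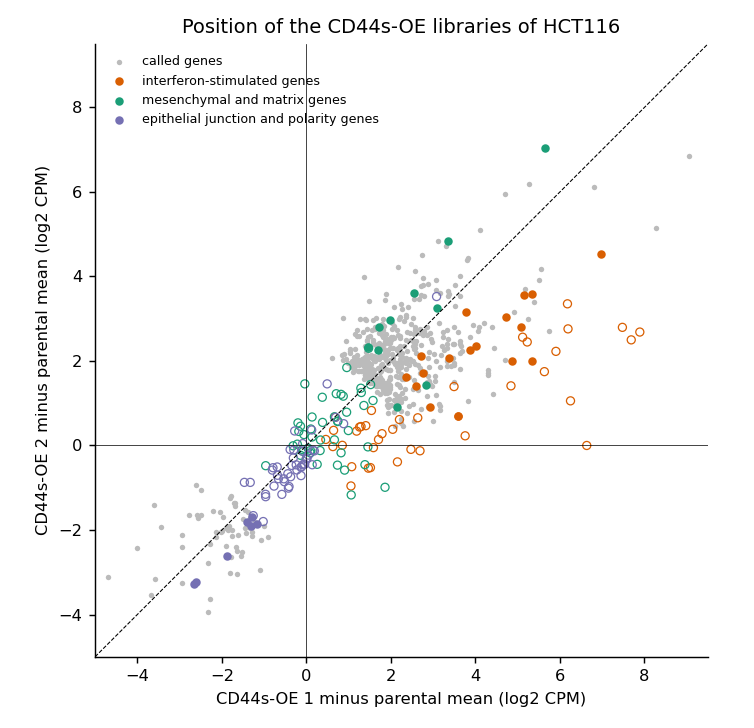
Each point is a gene, placed by its log2 CPM minus the parental mean in CD44s-OE 1 (x axis) and CD44s-OE 2 (y axis), in grey for called genes and in color for list members, filled where called and open where not. Points on the dashed line are equal in both libraries. Interferon-stimulated genes (orange) lie below the line, toward CD44s-OE 1, while mesenchymal genes (green) and epithelial junction genes (purple) spread along it.

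Among the genes called higher the libraries were placed evenly when the size of the gap was ignored, but not where it exceeded 2-fold. A call itself depends on a small spread between libraries. Of the 469 called higher, 293 exceeded a log2 CPM difference of 1.5 from the parental mean in both libraries, 87 only in CD44s-OE 1, 88 only in CD44s-OE 2 and 1 in neither. CD44s-OE 1 was the further library for 237 and CD44s-OE 2 for 232. Over all tested genes CD44s-OE 1 was the higher library for 8594 and CD44s-OE 2 for 8739. Where the gap exceeded 2-fold among the genes called higher, CD44s-OE 1 led in 104 and CD44s-OE 2 in 50. Of the 67 called lower, 41 passed 1.5 in both libraries, 8 only in CD44s-OE 1 and 18 only in CD44s-OE 2.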

How the data were processed

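PolyA RNA of the cells was sequenced in paired reads. The authors filtered reads with SOAPnuke, aligned them to hg19 with STAR 2.7.9a and counted them per gene with featureCounts (Subread 2.0.3). The deposited table holds raw counts of 62426 genes, and the gene length in the same table was not used in any test. Per the file headers counting was reverse-stranded and did not ask for pairs to be counted, so a pair is taken to give 2 counts. The authors also deposited variance-stabilized values on a log2-like scale, made with DESeq2 1.30.1, which entered 1 alternative only. Every column used matched a labelled sample, with 0 unmatched.

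The 6 HCT116 libraries, CD44v6-OE included for the estimate of spread, entered a fit in edgeR 4.0.16, run in R 4.3.3 beside limma 3.58.1. It used filterByExpr, TMM scaling and quasi-likelihood tests (robust=TRUE), and p-values were adjusted by the Benjamini-Hochberg method across the 17335 genes tested. Log2 CPM used a prior count of 2. Depth was 51075563 to 52811889 counts over the 4 libraries compared, and a count of 0 allows up to 6 counts, or 0.114 to 0.117 CPM. Intervals and floors cover counting error only. Where parental cells had 12 counts or fewer in all, the ratio of the groups with an exact 95% interval, on counts halved to read pairs, stands beside the fold. The scripts were tested on simulated counts.

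The members and the 32 gene lists (893 of 897 symbols matched) were chosen with earlier results of these data known. Genes named were the 12 largest called changes in each direction (average log2 CPM of at least 1, no overlap), up to 4 called members per list and direction, the 10 largest differences between the CD44s-OE libraries each way (average log2 CPM of at least 2) and 11 genes of the study. Others are marked. Genes of chromosome Y were not named, and some items are not reported here. RefSeq windows matched 11730 of 15859 tested symbols. Alternatives were RLE size factors, no filter, an average count of at least 50, robust=FALSE, DESeq2 1.42.0, only the 4 libraries, a replicate block, each library left out, halved counts, other thresholds and, for the library differences, other scales.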

Additional observations from a re-analysis of the deposited data

How the results depend on the processing

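The split of calls stayed mostly upward under every alternative tried. An average count of at least 50 gave 281 genes higher and 33 lower, the 4 libraries alone 311 and 44, an adjusted p under 0.05 gave 306 and 39, a log2 fold change over 2 with an unadjusted p under 0.01 gave 252 and 31, and no minimum fold change gave 1465 and 990, where the share of higher calls was 59.7% against 87.5%. Leaving out 1 library gave 112 to 673 genes higher and 24 to 154 lower, the fewest without parental 2, which shared 117 of the 536 calls, and the most without a CD44s-OE library, where a lone library is assumed to vary like the other groups. RLE size factors, no filter, robust=FALSE, DESeq2 and halved counts kept both counts within 1.5 times. The number of genes over 2-fold apart between the CD44s-OE libraries was 208 on variance-stabilized values and 1784 (10.3%) over all tested genes, where the parental libraries had 1331 (7.68%) and the CD44v6-OE libraries 788 (4.55%). The causes were not tested.

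Of the 66 called genes named by the rule, 28 kept the call under every refit that gave them a value. With at least 1 library left out 37 lost it, and 0 changed sign. An average count of at least 50 gave a value for 50 of the 66, the 4 libraries alone for 61, DESeq2 for 63 and halved counts for 64. The fit of the 4 compared libraries alone ended 11 named calls: ANKRD1, CCL5, GPA33, HLA-DPA1, IFIT2, IFNL3, MMP1, NECTIN4, NRG1, PDGFRB and PSMB9. The replicate block gave 468 genes higher and 71 lower, with 500 calls shared, and ended 11 of the named calls: CCL5, CXCL1, DPEP1, IFI44, IFIT2, IFIT3, IFNL3, KRT13, PDGFRB, PSMB9 and XAF1. Deviations of same-numbered libraries correlated at 0.0782 between CD44s-OE and parental cells and at 0.224 between CD44s-OE and CD44v6-OE. Between CD44v6-OE and parental cells the correlation was 0.0616. These values cannot settle whether the numbers pair the samples, since each group has only 2 libraries. With 2 libraries per group and parental counts near 0 for many genes, the spread is estimated from little. Differences below the fold minimum in weakly expressed genes may have been missed, and no detection limit was estimated.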

Other observations

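Of 17 tested intestinal differentiation genes 3 were called higher and 1 lower, against 2.71% and 0.387% of all tested genes. Besides DPEP1 these were CEACAM1, a cell adhesion molecule, at 1.03 and 0.938 CPM in parental cells and at 10.3 and 5.85 CPM in CD44s-OE (log2 fold change 3.04, SE 0.32, adjusted p = 0.00209 by edgeR), APOA1, an apolipoprotein, with 2 parental counts and a ratio of 19.5 (exact 95% interval of counting error 3.1 to 811), and GPA33, a colon epithelial antigen, lower with 30 parental counts and 4 counts in CD44s-OE (adjusted p = 0.0913). The GPA33 call ended with each single library left out (0.148 to 0.441), and the APOA1 call with each except CD44s-OE 1 (0.104 to 0.195). NDRG1, which rises with hypoxia and differentiation, was the 1 called gene of 31 for glycolysis and hypoxia, at 108 and 99.3 CPM in parental cells and at 606 and 304 CPM in CD44s-OE (log2 fold change 2.13, SE 0.27, adjusted p = 0.00498). RBFOX3, the neuronal nuclear antigen, had 5 parental counts and a ratio of 11.3 (2.96 to 49.3), and its call ended without parental 1 (0.107) or parental 2 (0.209). The 11 neuronal markers summed to 47.7 and 51.2 CPM in the parental libraries and to 57.2 and 64.3 CPM in CD44s-OE, mostly SYT1 (39.6 and 44.1 CPM in parental cells, 46.6 and 54.6 CPM in CD44s-OE), with NEFL, ELAVL4 and DCX at 0 counts in both parental libraries.

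The lists for p53 targets (26 tested), cholesterol and fatty acid synthesis (32), HOX genes (33), the stress and unfolded protein response (23) and xCT, glutathione and NRF2 targets (24) had 0 calls by edgeR, with 2 to 3 members of each at an adjusted p under 0.1 at any fold in either direction, except 4 for xCT. At an unadjusted p under 0.05 the counts upward and downward were 0 and 3, 5 and 2, 7 and 1, 2 and 0, and 5 and 5 in that order. Over all tested genes 14.6% passed this threshold upward and 10.6% downward. DESeq2 called 2 xCT, glutathione and NRF2 targets higher and 0 members of the other 4 lists. In the stress list CD44s-OE 1 was over 2-fold above CD44s-OE 2 in 7 of 23 members. DDIT4 and CHAC1, chosen after their values were seen, stood at 254 and 58.0 CPM and at 95.5 and 12.8 CPM in parental 1 and 2, against 113 and 44.5 CPM and 80.6 and 18.4 CPM in CD44s-OE 1 and 2.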
